A study of Mus musculus with 12 samples.

Results

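The 10 genes described here mark mast cells and were followed through 12 RNA sequencing libraries of HM1, a mouse ovarian cancer line, and of tumors grown from it. The 10 genes encode granule proteases, receptors, an enzyme of histamine synthesis and a lineage transcription factor, and were picked by name out of 55878 genes listed for tumors and 56061 for cultured cells. All 10 are listed in all 12 tables. They were proposed with the knockdown change in these tumors already known, so their values in that contrast are a description, and no test of them is offered as support. The 4 groups hold 3 libraries each: HM1 cells in culture with a control short hairpin RNA (genotype given as wild type), HM1 cells with a hairpin against St3gal3, tumors of the control line, and tumors of the knockdown line. St3gal3 encodes a sialyltransferase, and the series title asks about tumor immunity and resistance to immunotherapy. How many hairpins or clones were used, and the strain, age and injection site of the host mice, are not given in the sources used here. The labels do not tell whether each library had its own mouse or dish, so the p-values cover the spread among these libraries alone, which may be technical.

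Mast cells are tissue-resident cells of blood-forming origin that store proteases, histamine and heparin-like proteoglycan in granules and release them when IgE bound to their receptor is cross-linked. Their growth and survival depend on stem cell factor acting on the receptor tyrosine kinase Kit. In mice, mast cells of connective tissue are known for tryptases, carboxypeptidase and the chymases Mcpt4 and Cma1, and mast cells of mucosa for the chymases Mcpt1 and Mcpt2.

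Values are TPM, relative transcript abundances corrected for gene length and library total, so levels of different genes can be set side by side. The depth behind them is unknown. The number of genes at 1 TPM or more ran from 12629 to 13145 in culture and from 14046 to 14534 in tumors. St3gal3 fell with the knockdown in both tissues, by 2.32 on the log2(TPM + 1) scale in culture (SE 0.164, limma adjusted p = 0.00689) and by 1.13 in tumors (SE 0.110, limma adjusted p = 0.00954). Of the markers of the labelled cell type, the keratins Krt8, Krt18 and Krt19 were abundant in culture and in tumors. Msln, a further marker on that list, was at 15.38 to 18.53 TPM in culture and 32.88 to 68.72 TPM in tumors. The epithelial genes Epcam and Krt7 and the ovarian genes Pax8 and Wt1 were at most 0.44 TPM in every culture library. In the wider set of 8 leukocyte genes tested in tumors all 8 changes were positive (median log2 change 0.38), 0 were called and 4 had an unadjusted p under 0.05. Among these, lymphocyte genes had changes as large as those of the mast cell genes, without overlap between the groups. Nkg7, a gene of cytotoxic lymphocytes, averaged 6.29 TPM in the controls against 19.7 TPM in the knockdowns (log2 change 1.59, limma adjusted p = 0.0855), Cd8a 1.76 and 5.04 TPM (1.28, 0.193) and Cd3e 2.10 and 5.11 TPM (1.00, 0.0853). Each library was scaled on its own and each tissue fitted alone, so a level in culture beside one in tumors is a description. In bulk tissue, more cells of a type and more RNA per cell cannot be told apart.

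The stretches just before the start sites of the mast cell genes are shown because the members include Gata2, whose protein binds a GATA motif, and because several members differed together between the tumors. Of the 10 genes, 8 had an entry in the RefSeq promoter table of build GRCm38.p6, which is not the build of the expression tables. GATAA was searched on both strands in the 250 bases before each start. It was found in 5 of 5 matched genes that are largely restricted to mast cells and basophils (Cpa3, Cma1, Mcpt4, Fcer1a and Ms4a2) and in 0 of the other 3 matched genes (Kit, Hdc and Gata2). Of all 32851 windows listed for 27025 genes, 22.6% hold it, and of the 12408 windows with at most 3 CG dinucleotides, as in those 5 genes, 33.7% do. The motifs were chosen with these sequences already seen. The 200 bases before the start are printed below, 5′ to 3′ on the gene's strand, with GATAA, or TTATC for the other strand, in capitals. The chymase Mcpt1, not one of the 10, is added for comparison with its neighbor Mcpt4.
Cpa3 (chr3:20242182-20242381, minus strand): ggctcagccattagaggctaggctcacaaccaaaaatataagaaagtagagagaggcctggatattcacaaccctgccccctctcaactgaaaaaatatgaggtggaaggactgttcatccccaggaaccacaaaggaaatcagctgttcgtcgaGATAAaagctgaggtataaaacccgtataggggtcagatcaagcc
Cma1 (chr14:55944676-55944875, minus strand): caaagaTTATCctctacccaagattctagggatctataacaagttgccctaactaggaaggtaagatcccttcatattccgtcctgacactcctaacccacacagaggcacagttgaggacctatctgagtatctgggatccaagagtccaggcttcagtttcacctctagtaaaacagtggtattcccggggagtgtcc
Mcpt4 (chr14:56062311-56062510, minus strand): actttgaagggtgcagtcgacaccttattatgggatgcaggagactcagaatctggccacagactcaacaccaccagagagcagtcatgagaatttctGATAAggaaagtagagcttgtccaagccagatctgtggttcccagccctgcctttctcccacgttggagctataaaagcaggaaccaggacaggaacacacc
Fcer1a (chr1:173227230-173227429, minus strand): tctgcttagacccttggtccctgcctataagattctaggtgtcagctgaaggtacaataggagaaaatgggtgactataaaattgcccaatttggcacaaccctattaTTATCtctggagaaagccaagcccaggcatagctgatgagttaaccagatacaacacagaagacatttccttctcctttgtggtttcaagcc
Ms4a2 (chr19:11623720-11623919, minus strand): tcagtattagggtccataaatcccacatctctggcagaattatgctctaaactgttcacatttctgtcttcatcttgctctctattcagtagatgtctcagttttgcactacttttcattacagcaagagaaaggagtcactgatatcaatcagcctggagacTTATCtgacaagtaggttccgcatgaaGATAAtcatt
Mcpt1 (chr14:56017764-56017963, plus strand): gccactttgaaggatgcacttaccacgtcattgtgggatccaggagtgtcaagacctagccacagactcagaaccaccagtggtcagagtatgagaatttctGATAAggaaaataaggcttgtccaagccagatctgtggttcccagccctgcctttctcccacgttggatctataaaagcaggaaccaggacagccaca

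The motif begins 45 bases before the start of Cpa3, 102 before Mcpt4, 98 before Mcpt1, 92 before Fcer1a and 194 before Cma1. Ms4a2 holds it 3 times, at 224, 37 and 10 bases, of which the last 2 lie in the stretch shown. The Mcpt4 and Mcpt1 stretches are near copies, with 85.7% identity over 196 aligned bases, and the motif is in the same surrounding sequence in both. Windows of Kit and Gata2 held 17 to 24 CG dinucleotides, against 0 to 3 in the 5 genes with the motif and 2 in Hdc. Of 4 further motifs searched on both strands, CACGTG was in no window of the 8 matched genes. CATGTG was in that of Fcer1a (12.3% of all windows), CAGCTG in those of Cpa3 and Fcer1a (13.0%) and TATAAA in those of Cpa3, Fcer1a and Mcpt4 (12.4%). A match is a description of these letters and not a binding site.

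In tumors, the 5 granule proteases among the members all stood higher in the knockdown group, with no overlap between libraries. Their summed level was 71.0, 44.1 and 69.1 TPM in control tumors 1, 2 and 3 and 182, 156 and 140 TPM in their knockdown counterparts. The ratio of the group means was 2.59. Kit, Hdc, Gata2 and the IgE receptor subunit gene Ms4a2 overlapped between the groups.

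Cpa3 (ENSMUSG00000001865) encodes the mast cell carboxypeptidase, an exopeptidase stored with the chymases. It was at 5.56, 3.05 and 4.67 TPM (controls 1 to 3) and 16.41, 14.4 and 12.82 TPM (knockdowns 1 to 3). The groups lay far apart, with means of 4.43 ± 1.27 and 14.5 ± 1.80 TPM (SD, n = 3 each) and a log2(TPM + 1) change of 1.54 (SE 0.189).

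The tryptases Tpsab1 (ENSMUSG00000024173) and Tpsb2 (ENSMUSG00000033825) encode trypsin-like proteases that are stored bound to heparin. Tpsab1 was at 20.49, 14.61 and 17.02 TPM in the control group, while the knockdown group read 43.5, 38.88 and 36.96 TPM (log2 change 1.16, SE 0.128). Tpsb2 was at 16.6, 13.03 and 21.4 TPM and then 46.37, 42.09 and 36.31 TPM (1.26, SE 0.178). Both were about as abundant as each other in either group. Their reference transcripts, of 1156 and 1118 bases, are 74.0% identical where they align and share 0.799% of the 31-base words of Tpsab1. The RefSeq table, built on the C57BL/6J strain, lists Tpsab1 as a transcribed pseudogene. Its transcripts made up 15.5, 15.1 and 9.95% of the 7 protease transcripts described here in control tumors and 15.3, 12.2 and 13.7% in knockdown tumors.

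The chymases Cma1 (ENSMUSG00000022225) and Mcpt4 (ENSMUSG00000061068) encode serine proteases of the connective tissue type of mast cell. Mcpt4 is the mouse chymase often set beside the human enzyme in function. It was at 20.37, 9.25 and 17.82 TPM in the controls against 56.11, 41.61 and 38.0 TPM in the knockdowns (log2 change 1.51, SE 0.312). Cma1 was at 7.96, 4.2 and 8.15 TPM and then 19.7, 18.68 and 15.88 TPM (1.34, SE 0.228). Control tumor 2 was the lowest of all 6 tumors for both, and the wide spread of Mcpt4 in control tumors gave it the largest SE of the members. Cma1 shares no 31-base word with Mcpt4, while Mcpt4 shares 10.2% of its words with Cma2, a related chymase gene at 0.94 to 2.37 TPM, so a part of its reads could have been assigned to either.

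**Figure D1:**
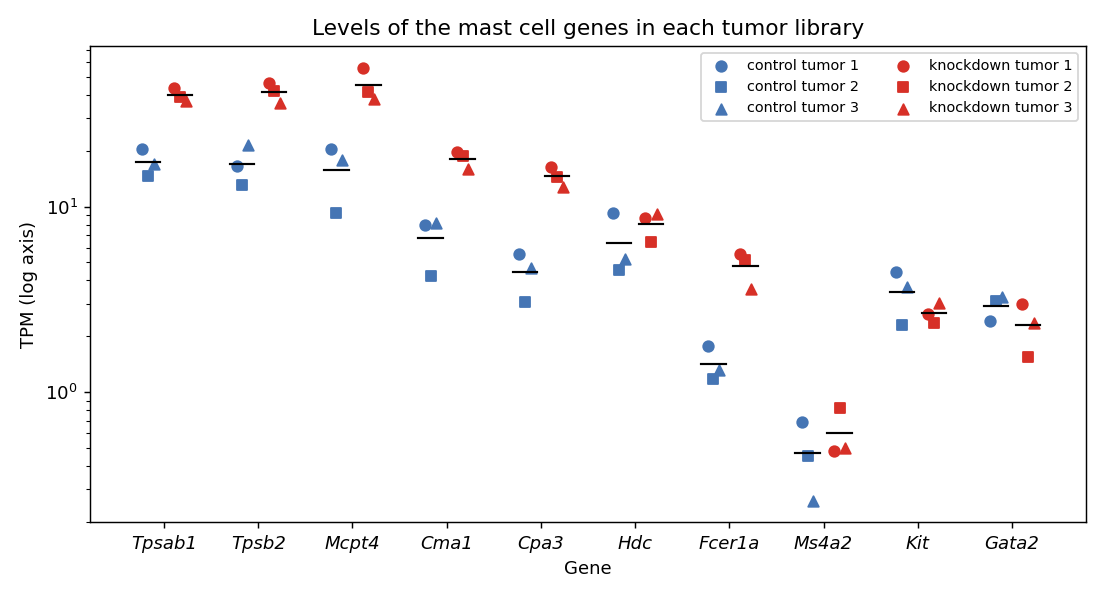
TPM of the 10 genes on a log axis in the 3 control tumor libraries (blue) and the 3 knockdown tumor libraries (red), with the shape giving the library number and a bar for the group mean. Knockdown libraries lie above control libraries for Tpsab1, Tpsb2, Mcpt4, Cma1, Cpa3 and Fcer1a, and the groups overlap for Hdc, Ms4a2, Kit and Gata2.

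Of the receptor genes, 1 differed between the tumor groups without overlap. Fcer1a (ENSMUSG00000005339) encodes the alpha chain of the high-affinity IgE receptor, which holds the IgE. It was at 1.78, 1.17 and 1.31 TPM (controls 1 to 3) and 5.56, 5.18 and 3.61 TPM (knockdowns 1 to 3) (log2 change 1.25, SE 0.179). Ms4a2 (ENSMUSG00000024680), which encodes the beta chain of the same receptor, was at 0.69, 0.45 and 0.26 TPM in the control group, while the knockdown group read 0.48, 0.82 and 0.5 TPM. Its mean stayed under 1 TPM in every group, so it was the member left out of the fit by the filter on low values. Kit (ENSMUSG00000005672), the stem cell factor receptor, was at 4.44, 2.29 and 3.69 TPM in the controls against 2.63, 2.36 and 3.01 TPM in the knockdowns (log2 change -0.26, SE 0.200). The knockdown values of Kit fell inside the control range.

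The gene of histamine synthesis and that of the lineage factor gave overlapping groups too. Hdc (ENSMUSG00000027360), histidine decarboxylase, makes histamine and is also expressed by other myeloid cells. It was at 9.22, 4.57 and 5.23 TPM (controls 1 to 3) and 8.67, 6.46 and 9.16 TPM (knockdowns 1 to 3) (log2 change 0.35, SE 0.245). Gata2 (ENSMUSG00000015053), a transcription factor of mast cells, blood progenitors and endothelium, was at 2.41, 3.11 and 3.25 TPM in the control group, while the knockdown group read 2.97, 1.55 and 2.36 TPM (-0.27, SE 0.192). Knockdown tumors 2 and 3 were below all 3 controls for Gata2, and knockdown tumor 1 was not.

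Counted over the list, 9 of the 10 genes passed the filter, 7 of these had a positive change, and the median log2 change was 1.25, beside -0.053 over all 14915 genes tested. At a limma adjusted p under 0.05, 5 were called higher (Cpa3, Tpsab1, Tpsb2, Fcer1a and Cma1, and not Mcpt4) and 0 lower, where 1.07% of all genes tested were called higher and 0.436% lower. The groups did not overlap, with the knockdown higher, for 6 of the 10 genes, as for 9.81% of all genes tested; 0 of the 10 lay lower without overlap, as did 14.9% of all genes. At an unadjusted p under 0.05 there were 6 of 9, beside 18.7% of all genes in either direction. Since the members were proposed from this contrast, nothing is read from these counts. Leaving out control tumor 1 or 3 lowered the count of 5 to 3, leaving out control tumor 2 or knockdown tumor 3 lowered it to 4, and leaving out knockdown tumor 1 or 2 lowered it to 0. The median stayed between 1.07 and 1.35 in these 6 omissions.

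**Figure D2:**
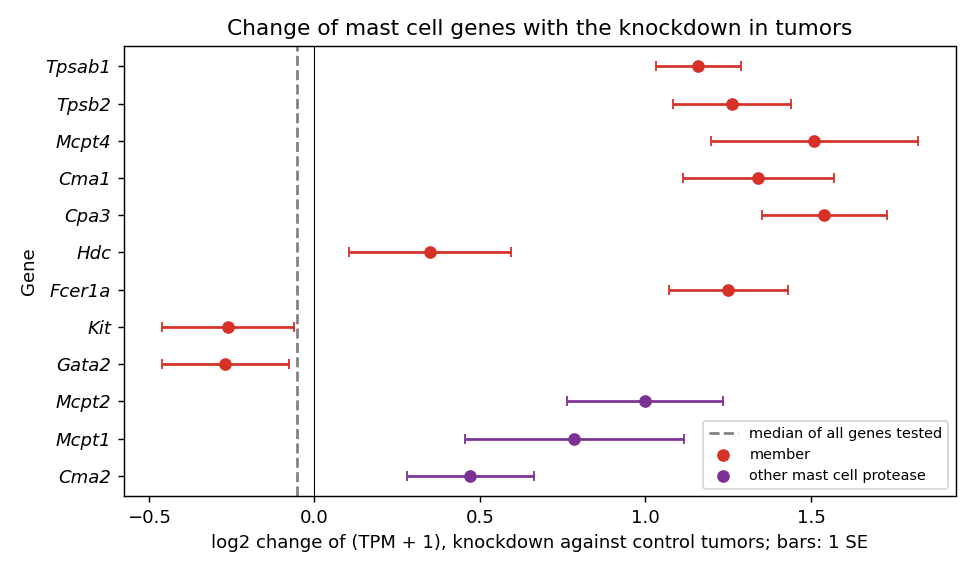
Change of each gene between knockdown and control tumors on the log2(TPM + 1) scale, with bars of 1 SE from the limma fit over 6 tumor libraries; members are red and other mast cell proteases purple, and the dashed line is the median of all genes tested (-0.053). The 5 member proteases and Fcer1a lie between 1.16 and 1.54, the other proteases between 0.47 and 0.998, Hdc is at 0.35, and Kit and Gata2 are at -0.26 and -0.27.

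By level the members fell into tiers. In control tumors the highest means were those of Tpsab1, Tpsb2 and Mcpt4 (17.4, 17.0 and 15.8 TPM), whose ranges overlapped. Cma1, Hdc, Cpa3, Kit and Gata2 followed, from 6.77 to 2.92 TPM, each overlapping the next, and then Fcer1a at 1.42 and Ms4a2 at 0.467 TPM, which overlapped no neighbor. In knockdown tumors Mcpt4, Tpsb2 and Tpsab1 again overlapped at the top (45.2, 41.6 and 39.8 TPM), followed by Cma1 and Cpa3 (18.1 and 14.5 TPM), which overlapped each other. Hdc at 8.10 and Fcer1a at 4.78 TPM stood apart from their neighbors, and Kit and Gata2 (2.67 and 2.29 TPM) overlapped.

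Set against Cpa3 in the same library, Fcer1a was at a like proportion in both groups, 0.328 ± 0.0520 transcripts per Cpa3 transcript in control and 0.327 ± 0.0404 in knockdown tumors (SD, n = 3 each). Mcpt4 was at 3.50 ± 0.415 and 3.09 ± 0.287 per Cpa3 transcript, with overlapping ranges. The ratios of Tpsab1 (4.04 ± 0.650 and 2.74 ± 0.122), Tpsb2 (3.95 ± 0.847 and 2.86 ± 0.0543) and Cma1 (1.52 ± 0.199 and 1.25 ± 0.0487) lay lower in knockdown tumors, without overlap. Kit was at 0.799, 0.751 and 0.79 per Cpa3 transcript in control tumors and 0.16, 0.164 and 0.235 in knockdown tumors. Among control tumors this ratio varied little although Cpa3 itself ranged from 3.05 to 5.56 TPM. Hdc was at 1.43 ± 0.276 and 0.564 ± 0.136, and Gata2 at 0.716 ± 0.294 and 0.158 ± 0.0433, both also without overlap. Cpa3 had the largest log2(TPM + 1) change of the tested members (1.54), so a gene that rose less tends to have a lower ratio in knockdown tumors. The share of all genes with such a lower ratio was not computed. These ratios use the contrast that chose the members and are given as levels.

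The libraries of 1 group also differed from each other, which is described here as deviations from the group mean for members that were themselves chosen by the contrast between the groups. Control tumor 2 was the lowest control library for 8 of the 10 genes. Among the 6 proteases and receptor genes that differed without overlap, knockdown tumor 1 was the highest knockdown library for 6 and knockdown tumor 3 the lowest for 6. The same shares over all genes were not computed, so whether these orders are particular to the mast cell genes was not tested. Over the 6 tumors, deviations from the group mean in log2(TPM + 1) of 1 gene were correlated with the mean deviation of the others of those 6 at Pearson r = 0.979 for Cpa3, 0.973 for Mcpt4, 0.944 for Cma1, 0.894 for Tpsab1, 0.763 for Tpsb2 and 0.702 for Fcer1a. For Kit r was 0.717, for Hdc 0.530 and for Gata2 -0.0548. These r describe 6 libraries that share depth and tissue makeup, and 128 of 14915 genes (0.858%) reached 0.9 against the mean of the 6 genes. The most alike by this measure were sought among non-members with a tumor mean of at least 2 TPM and no predicted or clone name. They were H2ac24, Rsad2, Kcne3, Dnmt3l, Dus4l and Timp2, with r from 0.984 to 0.998. Of these Rsad2, an interferon-induced antiviral gene, rose with the knockdown (log2 change 1.41, limma adjusted p = 0.00711), and the other 5 were not called, with changes from -0.27 to 0.18.

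**Figure D3:**
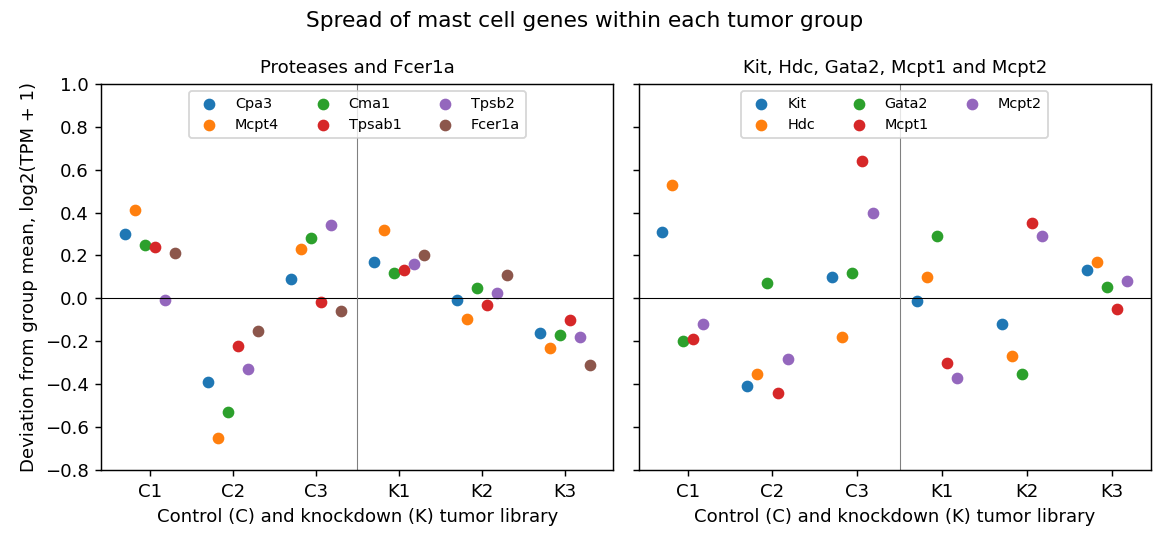
Deviation of each gene from its group mean in log2(TPM + 1), for control tumors C1 to C3 and knockdown tumors K1 to K3; the left panel has the 5 proteases and Fcer1a, the right panel Kit, Hdc, Gata2 and the mucosal chymases. On the left all 6 genes lie below 0 in C2 and above 0 in K1, and on the right the genes spread to both sides in most libraries, with Mcpt1 and Mcpt2 close together.

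Mucosal mast cell proteases, which are not among the 10, were abundant too. Mcpt1 was at 36.1, 30.18 and 64.95 TPM in the controls against 58.18, 92.47 and 69.57 TPM in the knockdowns (log2 change 0.79, SE 0.330, limma adjusted p = 0.287). Mcpt2 was at 25.44, 22.74 and 36.99 TPM and then 43.35, 69.43 and 59.76 TPM (0.998, SE 0.236, limma adjusted p = 0.109). Mcpt1 overlapped between the groups and Mcpt2 did not, and neither passed the test. Of the 6 other proteases listed, 4 were tested, 4 had positive changes and 0 were called (median log2 change 0.67): besides these, Cma2 (0.47, limma adjusted p = 0.250) and Ctsg (0.56, 0.302). Mcpt9 and Tpsg1 stayed under 0.5 TPM. Cma2 and Mcpt9 transcripts are 98.1% identical where they align, so their levels cannot be told apart firmly.

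Mcpt1 and Mcpt2 varied together within the groups (r = 0.953 between their deviations over 6 tumors) and had lower r with Mcpt4 (r = 0.278 and 0.0846), all of 1 chymase family. Cma1 and Mcpt4 had r = 0.949. These pairs were chosen after their values were seen. Together Mcpt1 and Mcpt2 made up 46.4, 54.5 and 59.6% of the transcripts of the 7 proteases (with Cpa3, Tpsab1, Tpsb2, Cma1 and Mcpt4) in control tumors and 35.8, 51.0 and 48.0% in knockdown tumors, ranges that overlapped.

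**Figure D4:**
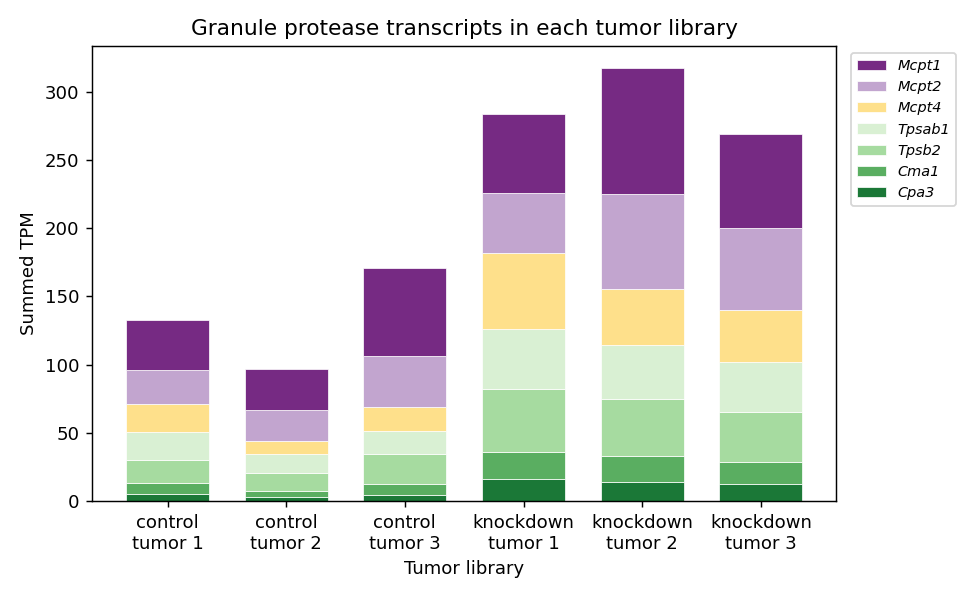
Summed TPM of 7 mast cell proteases in each of the 6 tumor libraries, stacked by gene, with the mucosal chymases Mcpt1 and Mcpt2 in purple. The 5 proteases of the connective tissue type sum to 44.1 to 71.0 TPM in control and 140 to 182 TPM in knockdown tumors, and the mucosal pair to 52.9 to 102 and 102 to 162 TPM.

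Other genes that mast cells use did not pass the test in whole tumors, with 1 exception. Several of them are also in the cultured line, such as Cd63 at 451 to 502, Vamp8 at 163 to 192 and Pla2g4a at 31.8 to 35.8 TPM. Others were low there, such as Srgn at 0.42 TPM at most. The counts and medians of these lists therefore cannot tell whether mast cells changed in these genes. Among 7 genes of lipid mediators, Ltc4s, which encodes leukotriene C4 synthase, fell from 5.34, 5.11 and 4.55 TPM to 2.2, 1.81 and 2.9 TPM (log2 change -0.87, SE 0.151, limma adjusted p = 0.0464), the opposite direction to the proteases. Omitting any 1 control tumor, or knockdown tumor 1 or 2, ended this call (limma adjusted p from 0.0844 to 0.161), as did dropping the filter on low values (0.107), with changes from -0.998 to -0.762 over the 6 omissions. Alox5ap, the partner of 5-lipoxygenase, averaged 33.4 ± 3.40 and 43.5 ± 5.84 TPM (0.37, limma adjusted p = 0.171), and Pla2g4a, Ptgs1 and Ptgs2 were not called. Hpgds, the prostaglandin D2 synthase of mast cells, was at 3.29 to 4.21 TPM in control and 2.09 to 5.1 TPM in knockdown tumors. The list had 1 of 7 called lower and a median of -0.12, where 0.436% of all genes were called lower.

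Of 11 tested genes of granule storage and secretion 0 were called, with 2 at an unadjusted p under 0.05 and a median of -0.023. Srgn, the granule proteoglycan core, was at 254.36, 158.28 and 193.92 TPM (controls 1 to 3) and 239.63, 321.06 and 309.39 TPM (knockdowns 1 to 3), Vamp8 had a change of 0.17, and Cd63 and Stxbp2 were at 0.028 and -0.023. Slc18a2, the transporter that loads histamine into granules, was at 0.27 to 0.56 TPM in tumors and 0.20 to 0.54 TPM in culture. Of 14 genes of IgE receptor signaling 0 were called, 5 had an unadjusted p under 0.05 and the median was 0.24. Fcer1g, the gamma chain that the receptor shares with other Fc receptors, averaged 152 ± 15.4 and 203 ± 13.2 TPM (0.42, limma adjusted p = 0.0795), and its groups did not overlap. Lat2, a signaling adaptor, averaged 47.4 ± 6.63 and 36.2 ± 2.23 TPM without overlap (-0.37, limma adjusted p = 0.154), and Lyn and Plcg1 overlapped. Surface receptors had 0 of 7 called, 2 at an unadjusted p under 0.05 and a median of 0.22. C3ar1 averaged 7.30 ± 0.795 and 10.1 ± 0.695 TPM (log2 change 0.42, limma adjusted p = 0.110). The cytokine receptor genes Il3ra, Csf2rb and Csf2rb2 overlapped between the groups. Mrgprb1, a receptor of connective tissue mast cells, was too low for the test, at 0.33, 0.16 and 0.2 TPM in control and 0.74, 0.64 and 0.55 TPM in knockdown tumors.

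Of the factors that feed or activate mast cells, Kitl, Il33 and Tgfb1 were tested in tumors and not called. Kitl, the ligand of Kit, was at 49.39, 26.54 and 31.89 TPM in the control group, while the knockdown group read 30.48, 31.76 and 32.48 TPM. Il33, an alarmin that activates mast cells, was at 9.28, 3.44 and 10.04 TPM and then 3.04, 1.29 and 4.44 TPM (log2 change -1.11, SE 0.475, limma adjusted p = 0.289). Tgfb1, a cytokine that acts on mast cells among many others, had a change of -0.12 (limma adjusted p = 0.464), and Il3 and Il9 are listed at 0 in all tumors. Of 8 tested lineage transcription factors 0 were called, 2 had an unadjusted p under 0.05 and the median was 0.0020. Bhlhe40 was at -0.51 (limma adjusted p = 0.118), Spi1 at 0.21, Runx1 at -0.11 and Lmo2 at 0.26.

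In the cultured line the mast cell genes were at or near 0. Tpsb2, Fcer1a, Ms4a2, Kit and Mcpt4 are listed at 0 in all 6 culture libraries. Cpa3 reached 0.04, Cma1 0.13, Tpsab1 0.30 and Hdc 0.50 TPM at most. The 7 genes restricted to mast cells and basophils summed to 0.06 to 0.34 TPM in culture, against 45.8 to 188 TPM in tumors. Gata2 was the exception, at 2.1, 1.6 and 3.33 TPM in control cells and 1.97, 0.65 and 1.03 TPM in knockdown cells, the single member that passed the filter there. It was not called (log2 change -0.60, SE 0.297, limma adjusted p = 1) and its groups overlapped. So 0 of 1 member tested was called, beside 0.0296% of 13492 genes in either direction (0.0148% higher and 0.0148% lower). In limma, 0 of 1 had an unadjusted p under 0.05, beside 3.42% of genes, and 0 of 1 stood apart without overlap, beside 5.25% of genes higher and 2.45% lower. Gata2 levels in culture overlapped those in tumors.

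The cultured line itself held transcripts of Kitl, at 27.86, 41.57 and 35.84 TPM in control cells and 34.35, 39.92 and 26.28 TPM in knockdown cells (log2 change -0.066, SE 0.190, limma adjusted p = 1). Its level in culture, 26.28 to 41.57 TPM, overlapped that in tumors, 26.54 to 49.39 TPM, while Il33 and Ltc4s stayed under 0.4 TPM in every culture library. Of the genes of granule storage 0 of 10 tested were called in culture, of lipid mediators 0 of 4, of receptor signaling 0 of 4, of surface receptors 0 of 1 and of transcription factors 0 of 5. At an unadjusted p under 0.05 there was 1 such gene, in the lipid list.

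**Figure D5:**
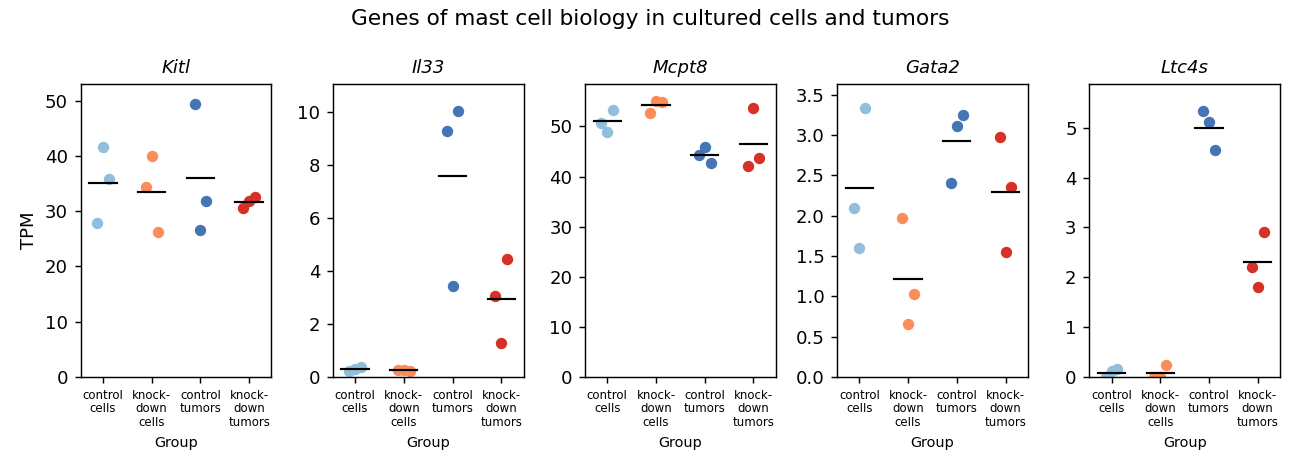
TPM of Kitl, Il33, Mcpt8, Gata2 and Ltc4s in the 3 libraries of each of the 4 groups, with a bar for the group mean. Kitl and Mcpt8 overlap between culture and tumors, Gata2 is present in both, and Il33 and Ltc4s are near 0 in culture.

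Several members are also expressed outside mast cells, so the defining genes of those cells are given beside them. Basophils share Fcer1a, Ms4a2, Cpa3 and Hdc. Their protease gene Prss34 was at 0 to 0.17 TPM in tumors and their receptor gene Cd200r3 at 0.09 to 0.35 TPM in control and 0.43 to 0.64 TPM in knockdown tumors. Their granule gene Mcpt8 cannot serve as a marker here, because it was at 49.0 to 55.1 TPM in the cultured line and 42.2 to 53.7 TPM in tumors (tumor log2 change 0.061, limma adjusted p = 0.758). The 6 basophil markers summed to 81.0 to 90.7 TPM in control and 77.9 to 98.2 TPM in knockdown tumors. Of these, 3 were tested, Mcpt8, Il3ra and Itga2, with 0 called and a median of 0.061. The cultured line holds all 3, with Il3ra at 14.74 to 25.63 TPM and Itga2 at 2.08 to 3.22 TPM. The sum, count and median therefore cannot tell whether basophils changed. Eosinophil markers had 0 of 1 called (Ear2) and summed to 9.06 to 24.9 and 12.3 to 20.7 TPM, with Epx at or near 0. Progenitor markers had 0 of 4 called and summed to 15.4 to 19.7 and 11.9 to 15.0 TPM, Cd34 being the most abundant (-0.59, limma adjusted p = 0.137) and Mpo and Elane at 0.18 TPM or less.

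Melanocytes and interstitial cells of Cajal depend on Kit. The 6 melanocyte markers summed to 0.45 TPM at most in a tumor, and Tyrp1 is listed at 0 in all. Cajal cell markers had 0 of 4 called, and their main gene Ano1 was at 28.6 to 40.1 TPM in the cultured line too. Markers of type 2 innate lymphoid cells were under 1 TPM except Areg, which the cultured line holds at 193 to 256 TPM, and Rora, at most 1.36 TPM. Neutrophil markers, with Hdc in mind, summed to 357, 138 and 174 TPM in control and 200, 206 and 249 TPM in knockdown tumors, with 0 of 7 called and a median of 0.070. Endothelial markers, with Gata2 in mind, had 0 of 8 called and 0 positive changes (median -0.39) and summed to 94.1, 78.1 and 111 TPM in control and 69.6, 56.2 and 85.1 TPM in knockdown tumors. What part any of these cells had in the levels of Kit, Hdc or Gata2 was not tested.

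Skeletal muscle transcripts were uneven between the tumors. The 12 markers summed to 3.32, 17.0 and 4.43 TPM in the controls against 110, 16.1 and 84.9 TPM in the knockdowns, and 0 of 9 tested were called (median 1.89). Knockdown tumors 1 and 3 were the highest in these transcripts. Keratins and other genes of the tumor line summed to 3227 to 3432 TPM in control and 2560 to 2826 TPM in knockdown tumors, with 0 of 5 tested called and a median of -0.32. The part of muscle or tumor line content in the mast cell levels was not tested.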

How the data were processed

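Messenger RNA was measured in 12 libraries, grouped and numbered by sample title. The authors deposited 1 table per sample with gene name, length and TPM to 2 decimals, per the file headers. Build GRCm39 and the tools RSEM, HISAT and fastp are listed, per the submitters' processing notes, without roles or versions. No source used here states the strand setting. Depth cannot be read from TPM, so no counting interval is given. For each tissue, limma 3.58.1 in R 4.3.3 (trended, robust) was run on log2(TPM + 1) of its 6 libraries. Genes entered where either group averaged 1 TPM or more. The log scale understates changes of low genes. Calls required a Benjamini-Hochberg adjusted p below 0.05 (two-sided, adjusted across every gene in the fit). An exact permutation test of 3 against 3 cannot go below p = 0.1 and was not used. The fit was checked on simulated data. Members and lists were chosen with earlier results of these data known. Named were all members, St3gal3, and per list the called genes and the 4 most abundant in tumors. Added were the 6 non-members most alike within groups that met the stated limits on level and name. Further genes were named after their values were seen. Promoters are from RefSeq (GRCm38.p6), transcripts from GENCODE M21, aligned with Biopython 1.88. Alternatives were a pseudocount of 0.1, other filters, a replicate block, median-of-ratios scaling and left-out libraries. Those for Mcpt1, Mcpt2, Ltc4s and Kitl, and the summed level without each library, were added after seeing the data. A listed item, and counts over its list, are not reported here.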

Additional observations from a re-analysis of the deposited data

How the results depend on the processing

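The count of members called in tumors, 5, was 5 with a pseudocount of 0.1 TPM, with a filter of 1 TPM in 3 libraries and with median-of-ratios scaling, 1 with no filter on low values (29690 genes tested), and 0 without knockdown tumors 1 and 3 together, where the lone knockdown library is assumed to vary like the others. Leaving out 1 library gave counts from 0 to 4, while the median change stayed between 1.07 and 1.35. With a replicate block the count was 0, and 2 of all 14915 genes were called instead of 225; the call of Ltc4s was lost too (limma adjusted p = 0.131). Deviations of same-numbered tumors correlated at -0.144, -0.0169 and 0.0489 across genes, beside -0.142 to 0.149 for tumors of different number. These few values cannot tell whether same-numbered tumors were paired or shared a batch. All genes called numbered 266, 330 and 258 under the first 3 settings, 82 with no filter, 72 without knockdown tumors 1 and 3, and 38 to 229 without 1 library. In culture the count was 0 in every setting run, with 4 to 15 genes called in all. No tested member changed direction in any setting. The change of Kitl, not called, ranged from -0.322 to 0.114 in tumors when 1 library was left out, turning positive without control tumor 1, and from -0.218 to 0.0939 in culture, turning positive (0.0623 and 0.0939) without control cells 2 or knockdown cells 3; the cause was not tested. The mean sum over the 7 restricted genes ranged from 58.2 to 72.0 TPM in control and 153 to 175 TPM in knockdown tumors. Unknown depth limits what can be said of genes under 1 TPM, such as Ms4a2.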

Other observations

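Within the tumor groups, Hdc varied with the neutrophil gene S100a9 (r = 0.909 between their deviations over 6 tumors) and had r = 0.530 with the mean deviation of the 5 member proteases and Fcer1a. Control tumor 1 was the highest for both, at 9.22 TPM of Hdc and 219.5 TPM of S100a9, against 4.57 and 76.47 TPM in control tumor 2. Of the other neutrophil markers listed, S100a8, Csf3r, Cxcr2 and Ly6g were also highest in control tumor 1. Mmp8 was highest in knockdown tumor 2 (6.25 TPM) and Retnlg in knockdown tumor 1 (18.71 TPM). The pair of Hdc and S100a9 was chosen after its values were seen, and 6 libraries that share depth and tissue makeup describe it only loosely. How many of all genes reach such an r with Hdc was not computed, and the part of neutrophils in Hdc was not tested.

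Mcpt8, a granule protease gene known from basophils, stood at 49.0 to 55.1 TPM in the 6 culture libraries, where every member but Gata2 was at 0.50 TPM or less. Its mean was 51.0 ± 2.14 TPM in control cells and 54.3 ± 1.34 TPM in knockdown cells (SD, n = 3 each), with a log2 change of 0.0885 (limma adjusted p = 1). Its reference transcript shared no 31-base word with those of Cpa3, Tpsab1, Tpsb2, Cma1 or Mcpt4.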
